A study of Rattus norvegicus with 24 samples.

Results

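The 7 genes described here are Mbp, Mobp, Mog, Mag, Cnp, Olig1 and Sox10, which are named for myelin or for oligodendrocytes, the cells that make it. They were taken by gene symbol, with every probe that carries one of the symbols, and each symbol had 1 probe. They are 7 of 7360 named genes that passed the filter on dim signal, on an array of 22523 probes. All 7 passed that filter. The tissue was dorsal striatum of male Sprague-Dawley rats, which either took the psychostimulant methamphetamine (METH) by self-administration or were yoked controls that received saline. METH rats took 0.1 mg/kg per injection intravenously in sessions of 15 h for 8 d. The METH 2 h group (6 arrays, slide 1) was killed 2 h after the last session and was set against 6 saline arrays of slide 1. The METH 24 h group (6 arrays, slides 2 and 3) was killed 24 h after it and was set against 6 saline arrays of slides 2 and 3. All groups were of the same strain, sex and tissue, with 1 array per sample. Replicate numbers were given here in the order in which the samples of a group are listed, are names only and pair no arrays. Neither a time of death for saline rats nor an age for any rat is stated in the labels.

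Oligodendrocytes wrap axons in myelin, a compact stack of membrane that speeds conduction. Mbp (myelin basic protein) and Mobp (myelin-associated oligodendrocyte basic protein) lie at the cytoplasmic face of compact myelin, Mog (myelin oligodendrocyte glycoprotein) sits on its outer surface, and Mag (myelin-associated glycoprotein) sits on the membrane next to the axon. Cnp, a cyclic nucleotide phosphodiesterase, keeps cytoplasmic channels open in the sheath, while Olig1 and Sox10 are transcription factors of the lineage. The striatum is crossed by bundles of myelinated fibres of the internal capsule and lies under the corpus callosum, so a dissected block holds a share of white matter.

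Since the question is whether these genes vary together, the DNA before 2 of them is shown, searched for a core recognised by the SOX family, to which Sox10 belongs (ACAAAG on either strand), and for the E-box read by basic helix-loop-helix factors such as Olig1 (CANNTG on either strand). Sequences are from RefSeq on the build GRCr8, run 5′ to 3′ on the strand of the gene and stop before the first annotated base of the gene, and capitals mark the matches. Cnp is on the plus strand at chr10:86011254-86011503 and Mobp on the plus strand at chr8:128746982-128747116.
Cnp: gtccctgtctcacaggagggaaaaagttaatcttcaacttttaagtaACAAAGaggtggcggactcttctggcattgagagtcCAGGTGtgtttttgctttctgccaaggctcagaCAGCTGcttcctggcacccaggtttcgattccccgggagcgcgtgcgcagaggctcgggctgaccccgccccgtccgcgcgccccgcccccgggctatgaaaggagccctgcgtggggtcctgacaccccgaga
Mobp: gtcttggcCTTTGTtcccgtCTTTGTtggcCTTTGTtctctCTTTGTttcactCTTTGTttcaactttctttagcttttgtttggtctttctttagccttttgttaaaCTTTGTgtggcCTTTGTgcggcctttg
The Cnp stretch holds 1 match to the SOX core and 2 E-boxes, and no match overlaps another. Among 33469 promoter windows of the same length, 16.3% hold the SOX core and 65.5% an E-box. The Mobp stretch, shorter because the table's start lies inside the annotated gene, holds 7 matches to the SOX core, all on the minus strand, and 0 E-boxes. Among windows of that length 9.39% hold the SOX core at least once, 44.7% hold an E-box, and 1, the Mobp window itself, holds as many SOX cores. A match of letters is a description of the sequence and was not measured as binding here.

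The arrays of slide 1 had 8208 to 9428 detected probes and those of slides 2 and 3 had 9375 to 10306, and the first principal component, with 47.1% of the variance, separated the sets of slides. METH effects were therefore taken only within a set, and levels on slide 1 were not set against levels on slides 2 and 3, where batch and time cannot be told apart. Levels below are normalized log2 signals, which serve to compare arrays for 1 probe and not 1 probe with another. Of the 7 probes, 6 were detected on 24 of 24 arrays. Mag was the dim one, detected on 20 of 24, with 4 of 6 arrays in the METH 2 h group and 4 of 6 saline arrays of slide 1. In whole tissue, fewer oligodendrocytes and less RNA per oligodendrocyte cannot be told apart.

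No difference between METH and saline was detected for any of the 7 genes at either time. At 2 h, 0 of 7 passed an adjusted p of 0.05 (limma, Benjamini-Hochberg over 10354 probes), where 0.0676% of all probes passed. At 24 h, 0 of 7 passed, where 0.0483% of all probes passed. Without adjustment, 0 of 7 had a p under 0.05 at either time, against 9.22% of probes at 2 h and 1.94% at 24 h. In every gene the METH range overlapped the saline range, with at most 2 of 6 METH arrays outside the saline arrays on the same side.

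Among the structural proteins, Mbp had log2 levels of 10.96, 11.83 and 12.02 (lowest, median and highest of 6 arrays) at METH 2 h and 11.05, 11.69 and 12.33 on the saline arrays of slide 1. The ranges nearly coincided, and the log2 change was -0.11 ± 0.35 (SE, adjusted p = 0.951 by limma). On the METH 24 h arrays Mbp had 9.19, 11.37 and 11.97, and on the saline arrays of slides 2 and 3 it had 10.28, 11.29 and 12.27. METH 24 h replicate 3 lay alone below the others, and the log2 change was -0.16 ± 0.35 (adjusted p = 1), or 0.20 without that array. Mbp was the least even of the 7 genes on these slides, as described further on.

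Mobp had log2 levels of 9.91, 10.88 and 11.13 at METH 2 h and 10.06, 11.06 and 11.31 on the saline arrays of slide 1. A single low array in each group, METH 2 h replicate 4 and saline replicate 1, set the bottom of both ranges, and the log2 change was -0.18 ± 0.19 (adjusted p = 0.796). At METH 24 h it had 10.50, 10.76 and 10.88, against 10.39, 10.67 and 10.95 on the saline arrays of slides 2 and 3. All 6 METH arrays lay inside the saline range, and the log2 change was 0.07 ± 0.19 (adjusted p = 1).

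Mog had 9.74, 9.94 and 10.42 at METH 2 h and 9.31, 10.08 and 10.27 on the saline arrays of slide 1, with a log2 change of 0.07 ± 0.14 (adjusted p = 0.916). On METH 24 h arrays it had 10.24, 10.43 and 10.80, against 10.13, 10.48 and 10.66 on saline arrays, with a log2 change of 0.01 ± 0.14 (adjusted p = 1). The medians differed by less than the spread of either group at both times. Mag had 5.08, 5.45 and 5.82 at METH 2 h and 5.16, 5.41 and 6.24 on the saline arrays of slide 1, with a log2 change of -0.07 ± 0.15 (adjusted p = 0.924). At METH 24 h it had 6.23, 6.31 and 6.64, against 6.20, 6.49 and 6.74 on saline arrays, with a log2 change of -0.09 ± 0.15 (adjusted p = 1). The signal of Mag stood so near the background that folds of this probe are compressed.

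Cnp, the enzyme of the sheath, had the lowest p of the 7 genes at 2 h. It had log2 levels of 10.66, 10.84 and 11.48 at METH 2 h and 10.59, 11.28 and 11.60 on the saline arrays of slide 1. The METH median lay lower but all 6 METH arrays were inside the saline range, and the log2 change was -0.25 ± 0.15 (adjusted p = 0.651 by limma). Saline replicate 1 alone set the bottom of that range, and without that array the log2 change was -0.37, again not past the threshold. At METH 24 h it had 11.13, 11.61 and 11.68, against 11.48, 11.58 and 11.84 on the saline arrays of slides 2 and 3. Both METH arrays that fell under the whole saline range were of slide 2, and the log2 change was -0.12 ± 0.15 (adjusted p = 1). The change of Cnp was -0.29 within slide 2 and 0.06 within slide 3 (3 METH and 3 saline arrays each).

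Olig1 had 11.05, 11.38 and 12.00 at METH 2 h and 10.57, 11.32 and 11.59 on the saline arrays of slide 1, with a log2 change of 0.15 ± 0.15 (adjusted p = 0.794). On METH 24 h arrays it had 11.19, 11.42 and 11.53, against 11.29, 11.32 and 11.60 on saline arrays, with a log2 change of 0.03 ± 0.15 (adjusted p = 1). At 24 h METH replicate 1 was the only Olig1 value below all saline arrays. Sox10 had 7.74, 8.14 and 8.40 at METH 2 h and 7.40, 8.38 and 8.46 on the saline arrays of slide 1, with a log2 change of -0.11 ± 0.16 (adjusted p = 0.864). Its values were 8.25, 8.74 and 8.88 at METH 24 h, against 8.33, 8.75 and 9.05 on saline arrays, with a log2 change of -0.01 ± 0.16 (adjusted p = 1). The low end on slide 1 was saline replicate 1, alone by almost a whole log2 unit from the next saline array.

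**Figure D1:**
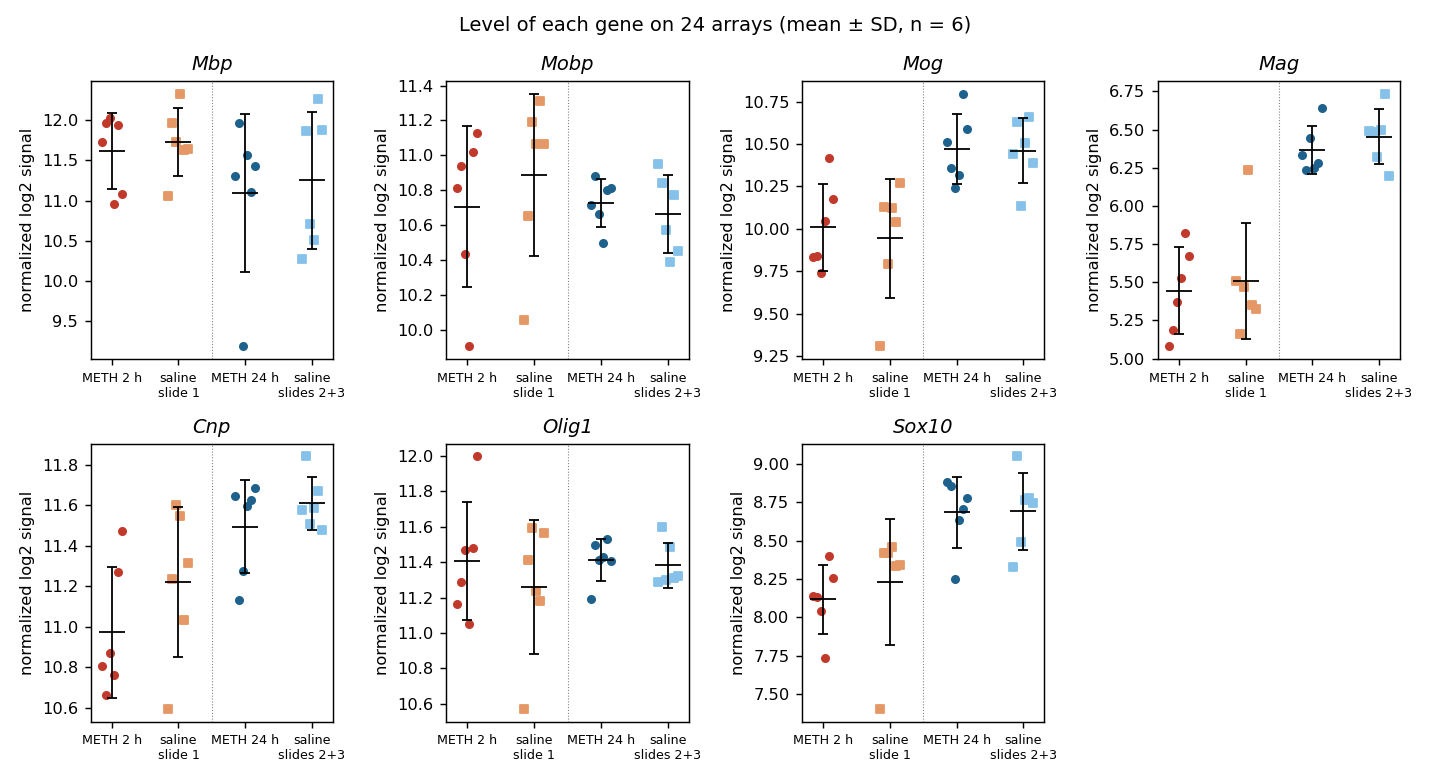
Normalized log2 signal of each gene on each array, with 1 panel per gene; circles are METH arrays and squares saline arrays, and black bars give the mean ± SD of 6 arrays. METH and saline points of the same slides overlap in all 7 panels, and Mbp on METH 24 h replicate 3 (9.19) is the farthest point; levels left and right of the dotted line come from different slides.

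The intervals say how large a change these arrays could have missed under the main scaling. They do not say this for Mag, whose folds are compressed near the background. At 2 h the 95% intervals of the 6 genes other than Mbp lay within 0.675-fold and 1.37-fold of saline, and that of Mbp ran from 0.562-fold to 1.53-fold. At 24 h the same bounds were 0.741-fold and 1.37-fold for the other 6 genes, and 0.544-fold and 1.48-fold for Mbp. The median log2 change of the 7 genes was -0.11 at 2 h and -0.01 at 24 h, against -0.0039 and -0.0020 over all probes. The sign at 2 h follows the scaling: under median scaling all 7 genes were positive, but so was the median of all probes (0.15), and the genes' median stood at -0.06 relative to it. In the deposited values, which are not scaled between arrays, 5 of 7 were positive, the median of all probes was 0.20 and the genes' median stood at -0.11 relative to it. The difference of the METH effects, 24 h minus 2 h, passed for 0 of 7 genes and for 0% of probes (adjusted p of the 7 genes 0.989 to 0.996, limma). Without adjustment 503 probes, 4.86% of all, and 0 of 7 genes had a p under 0.05 for that difference.

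**Figure D2:**
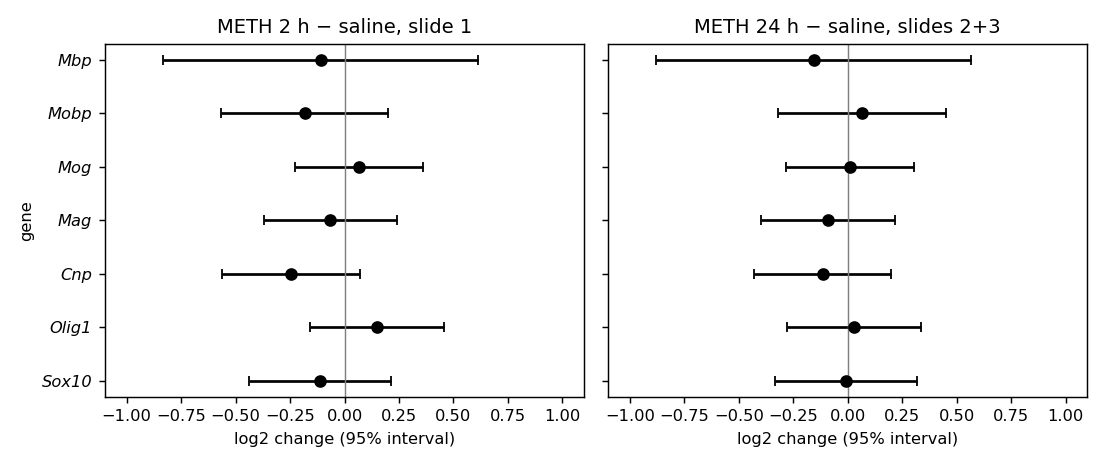
Log2 change of each gene, METH 2 h minus saline of slide 1 on the left and METH 24 h minus saline of slides 2 and 3 on the right, with 95% intervals of the limma fit. Every interval covers 0, and Mbp has the widest in both panels.

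In 5 lists of oligodendrocyte genes, 51 genes other than the 7 were tested, and 0 of 51 passed at 2 h, at 24 h or for the difference between them. At 2 h their median log2 change was -0.11, and 18 of 51 were positive, against 5068 of 10354 probes. Without adjustment 6 of 51 had a p under 0.05, 5 of them lower in METH rats, against 9.22% of all probes. At 24 h the median was -0.04, and 15 of 51 were positive, against 5111 of 10354 probes. There 0 of 51 had a p under 0.05, against 1.94% of probes. For the difference between the times 1 of 51 had a p under 0.05, against 4.86% of probes. The gene of lowest p at 2 h was Efnb3, the ephrin-B3 ligand carried by myelin, at -0.47 ± 0.13 (adjusted p = 0.182, limma), and at 24 h Efnb3 had -0.25 ± 0.13 (adjusted p = 1). Tspan2, a tetraspanin of oligodendrocytes, had -0.39 ± 0.13 at 2 h (adjusted p = 0.299, limma). Qdpr, which regenerates tetrahydrobiopterin, had 0.30 ± 0.14 at 2 h (adjusted p = 0.515, limma). Hdac11, a histone deacetylase, had -0.21 ± 0.09 (adjusted p = 0.491) and the adhesion molecule Mcam -0.26 ± 0.14 (adjusted p = 0.578) at that time.

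At 24 h the genes of lowest p in the other lists were Ermn, a cytoskeletal protein of myelin, at -0.17 ± 0.14, and Ugt8, which makes the myelin lipid galactosylceramide, at -0.19 ± 0.14 (adjusted p = 1 for both, limma). Sox8, a relative of Sox10, had -0.11 ± 0.16 and the receptor Gpr37 had -0.20 ± 0.15 at 24 h (adjusted p = 1 for both). Among 7 genes of oligodendrocyte precursors 0 passed at either time. At each time 1 of 7 had an unadjusted p under 0.05 (9.22% of probes at 2 h and 1.94% at 24 h). There Vcan, a matrix proteoglycan, had 0.33 ± 0.14 at 2 h (adjusted p = 0.453) and C1ql1, a secreted protein detected on 7 of 24 arrays, had -0.29 ± 0.12 at 24 h (adjusted p = 1).

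Markers of other cells were read beside these values. At 24 h, 3 of 5 blood genes were lower in METH rats (adjusted p under 0.05), where 0.0483% of all probes passed. The median log2 change of that list was -1.69, while 0 of 5 passed at 2 h. At both times 0 of 19 striatal projection neuron genes, 0 of 11 astrocyte genes, 0 of 12 microglia genes and 0 of 6 cortex neuron genes passed. Without adjustment, 9.22% of all probes had a p under 0.05 at 2 h and 1.94% at 24 h. Of 19 striatal projection neuron genes, 7 had such a p at 2 h, 6 of them lower in METH rats. Their list median was -0.22. The cortex neuron genes had a median of 0.69 at 2 h, and 4 of 6 had an unadjusted p under 0.05. The microglia genes had a median of 0.29 at 24 h, where 5 of 12 had such a p, all higher in METH rats. The 4 choroid plexus and ependyma genes had a median of -0.69 at 2 h, but 0 of 4 had an unadjusted p under 0.05. Of these, 0 of 4 were detected on 24 of 24 arrays. Only 2 of 6 listed Schwann cell genes were tested, with 0 passing. The part of these cells in the values of the 7 genes was not tested.

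The second question was how strongly the 7 genes rise and fall together between arrays of the same group. For this, each value was taken as its deviation from the mean of its group, with the difference between slides 2 and 3 removed. Over 24 arrays the 21 pairs of genes had a median Pearson r of 0.54 and a median Spearman rho of 0.42, and 20 of 21 were positive. The median r was 0.41 under median scaling and 0.46 in the deposited values. Over all pairs of 7360 named genes, under the main scaling and over 24 arrays, the median r was -0.00033, the 75th percentile 0.193 and the 95th percentile 0.451. No such background was taken for median scaling or the deposited values. On slide 1 the median r of the 21 pairs was 0.53 (21 of 21 positive), and on slides 2 and 3 it was 0.31 (18 of 21 positive), with 12 arrays each. With fewer arrays the r of all pairs of named genes spreads wider. Its 75th and 95th percentiles were 0.249 and 0.562 on slide 1 and 0.273 and 0.601 on slides 2 and 3. Deviations of different genes on 1 array share that array's RNA, labelling and scaling.

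Within single groups of 6 arrays the median r was 0.49 at METH 2 h and 0.73 on the saline arrays of slide 1. It was 0.19 at METH 24 h and 0.55 on the saline arrays of slides 2 and 3. Over all pairs of named genes the 75th and 95th percentiles were 0.370 and 0.756 at METH 2 h and 0.365 and 0.751 on saline arrays of slide 1. They were 0.392 and 0.776 at METH 24 h and 0.375 and 0.760 on saline arrays of slides 2 and 3. The differences of the median r between groups were not tested, and in 3 of the 4 groups that median was near 0 without 1 array. The median r was -0.01 on the saline arrays of slide 1 without replicate 1 and 0.09 on those of slides 2 and 3 without replicate 2. At METH 24 h it was -0.02 without replicate 3 and -0.04 without replicate 6. Without saline replicate 1 of slide 1 the median r fell to 0.38 over all arrays and to 0.37 on slide 1. Without saline replicate 2 of slides 2 and 3 it fell to 0.05 on those slides.

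Pairs differed in strength. On slide 1 the closest were Cnp with Olig1 (r = 0.86) and Mobp with Sox10 (r = 0.84). On slides 2 and 3 they were Mbp with Sox10 (r = 0.80) and Mobp with Mog (r = 0.72), and Cnp with Olig1 had an r of 0.02 there. That value pools an r of -0.64 over 6 METH 24 h arrays and 0.72 over 6 saline arrays, and it was 0.40 with brightness removed and 0.42 with detected probes removed. Sox10 followed the mean of the other 6 genes most closely, with r = 0.93 on slide 1 and 0.80 on slides 2 and 3 (12 arrays each). On slides 2 and 3 Mbp had the widest spread (SD 0.82) and so weighs most in that mean. There Sox10 had r = 0.52 with Mog, 0.38 with Cnp, 0.31 with Olig1, 0.18 with Mobp and -0.03 with Mag. Mag followed the mean of the other 6 genes least, with r = 0.25 on slide 1 and 0.08 on slides 2 and 3. For Mbp these were 0.43 and 0.46. In the 10 pairs among Mobp, Mog, Cnp, Olig1 and Sox10, a subset chosen after these values were seen, the median r was 0.66 over 24 arrays, 0.72 on slide 1 and 0.31 on slides 2 and 3, where all 21 pairs also had 0.31.

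**Figure D3:**
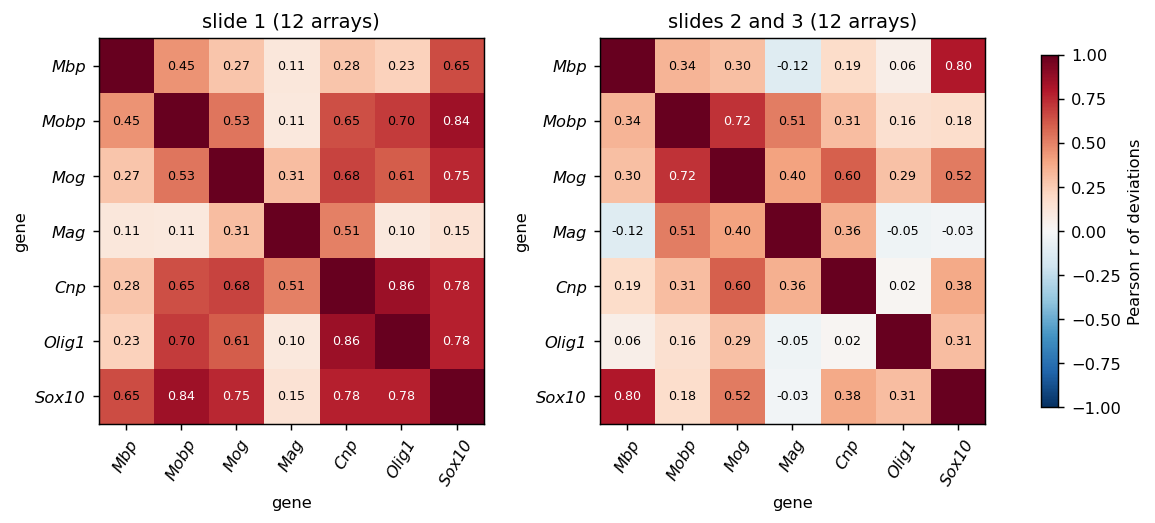
Pearson r of the deviations from group and slide means for each pair of genes, over the 12 arrays of slide 1 (left) and the 12 of slides 2 and 3 (right); red is positive and blue negative. The block of high values on slide 1, such as 0.86 for Cnp with Olig1, is paler on slides 2 and 3, where Mbp with Sox10 (0.80) and Mobp with Mog (0.72) stay high.

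A test of the same relation was made with limma, by fitting the slope of every probe on the level of Mobp within groups and slides. All 6 other genes had a positive slope, 4 of 6 had an unadjusted p under 0.05 (10.8% of probes did), and 0 of 6 passed after adjustment, where 0.058% of probes passed. The slopes, in log2 units per log2 unit of Mobp, were 0.56 ± 0.14 for Sox10 (adjusted p = 0.185) and 0.49 ± 0.14 for Olig1 (adjusted p = 0.233). Cnp had a slope of 0.47 ± 0.15 (adjusted p = 0.278) and Mog 0.40 ± 0.14 (adjusted p = 0.329). Mbp had 0.59 ± 0.38 (adjusted p = 0.625) and Mag 0.13 ± 0.17 (adjusted p = 0.842). Without saline replicate 1 of slide 1 the slopes on Mobp were 0.33 for Sox10, 0.31 for Olig1, 0.32 for Cnp, 0.21 for Mog and 0.20 for Mag. The slope of Mbp had the other sign under median scaling (-0.23) and in the deposited values (-0.04). In the deposited values 4 of 6 genes passed, as did 1768 of 10353 probes.

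With each other gene as the covariate in turn, few pairs passed. On Sox10, the slopes of Mbp (1.58 ± 0.37, adjusted p = 0.0452) and Mobp (0.82 ± 0.20, adjusted p = 0.0476) passed, where 0.715% of probes did. On Olig1, Cnp passed (0.75 ± 0.17, adjusted p = 0.0334), where 1.36% of probes did. On Cnp, Olig1 passed (0.70 ± 0.16, adjusted p = 0.045), where 0.57% of probes did. On Mbp, Sox10 passed (0.28 ± 0.07, adjusted p = 0.0347), where 3.58% of probes did. On Mog, with 0.0193% of probes passing, and on Mag, with 0.0869%, 0 of 6 genes passed, although 4 of 6 on Mog (11.4% of probes) and 1 of 6 on Mag (12.2% of probes) had an unadjusted p under 0.05.

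These 5 calls lay close to the threshold and were not 5 separate pairs of genes. Mbp with Sox10 and Cnp with Olig1 each passed in both directions, on the same arrays. When each array was left out in turn, the slope of Sox10 on Mbp passed in 19 of 24 fits and that of Cnp on Olig1 in 19 of 24. The slopes of Olig1 on Cnp and of Mbp on Sox10 passed in 8 of 24, and that of Mobp on Sox10 in 5 of 24. Without saline replicate 1 of slide 1 the adjusted p was 0.309 for Olig1 on Cnp, 0.179 for Cnp on Olig1 and 0.403 for Mobp on Sox10 (limma). Without saline replicate 2 of slides 2 and 3 none of the 42 ordered pairs passed.

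The brightness of an array moved with these genes. On saline replicate 1 of slide 1 the 7 genes lay below the group mean by 0.61 log2 units on average, with Mag at only -0.0018. That array had the highest 95th percentile of intensity before normalization, at 1335. Saline replicate 4 of the same slide, whose 7 genes averaged 0.32 above the group mean, had the lowest, at 380.7. Over 24 arrays the mean deviation of the 7 genes had r = -0.78 and rho = -0.78 with the deviation of log2 brightness, and r = -0.62 without the 2 arrays of most extreme brightness. It was -0.85 on slide 1 and -0.61 on slides 2 and 3 (12 arrays each). For the 6 genes other than Mbp it was -0.81 on slide 1 and -0.31 on slides 2 and 3. With brightness as a further term, 0 of 6 genes passed in each of the 7 slope fits, and likewise with the number of detected probes as that term. Of all probes 0% to 2.87% passed beside brightness and 0% to 3.16% beside detected probes. Beside brightness the number of genes with an unadjusted p under 0.05 ran from 0 of 6 on Mbp (16.5% of probes) and on Mag (8.73% of probes) to 5 of 6 on Sox10 (6.7% of probes). The median r of the 21 pairs was then 0.39 with brightness removed and 0.38 with detected probes removed (24 arrays).

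**Figure D4:**
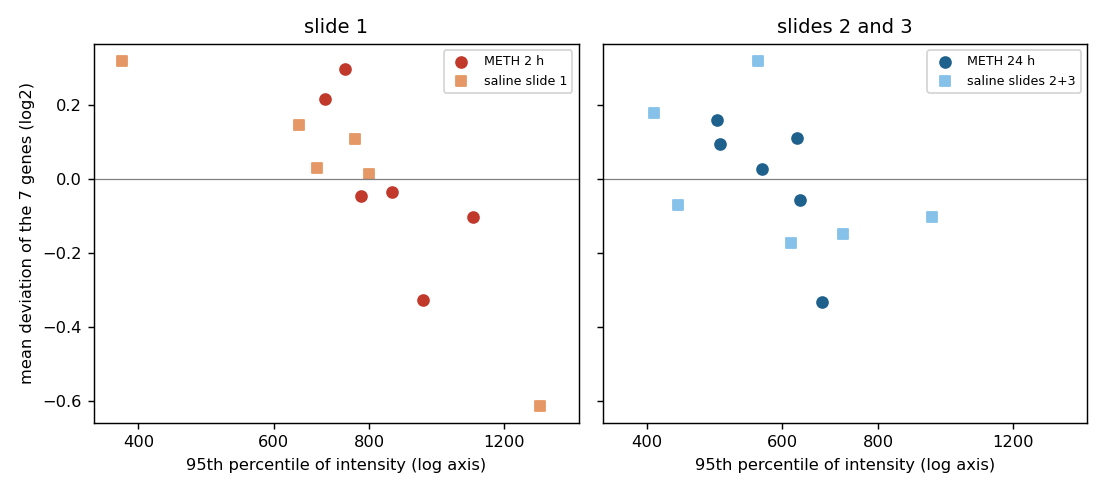
Mean deviation of the 7 genes on each array (log2, vertical) against the 95th percentile of its intensity before normalization (horizontal, log axis), for slide 1 on the left and slides 2 and 3 on the right; circles are METH and squares saline. The brightest array of slide 1 (1335) is the lowest (-0.61), and r is -0.85 on slide 1 and -0.61 on slides 2 and 3.

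The mean deviation of the 7 genes was taken as a measure of white matter per dissection, although it moved with brightness too (r = -0.78, 24 arrays). It was described by its spread in each group, with no test between groups. Its SD was 0.23 at METH 2 h and 0.32 on the saline arrays of slide 1, and 0.18 at METH 24 h and 0.20 on the saline arrays of slides 2 and 3. From lowest to highest array this was 1.54-fold at METH 2 h and 1.90-fold on the saline arrays of slide 1. On the other slides it was 1.41-fold at METH 24 h and 1.40-fold on saline arrays. These values depended on single arrays: the saline arrays of slide 1 had an SD of 0.12 and a range of 1.23-fold without replicate 1, below those of METH 2 h. The METH 24 h arrays had an SD of 0.08 and a range of 1.16-fold without replicate 3. On that replicate Mbp deviated by -1.62 and the mean of the 7 genes by -0.33. The mean without Mbp and Mag was -0.16 there. The arrays with all 7 genes on 1 side of their group mean were saline replicate 1 of slide 1 and saline replicate 3 of slides 2 and 3, below it, and METH 2 h replicate 5 and saline replicate 2 of slides 2 and 3, above it. On saline replicate 1 of slide 1 Mag was below by a trace only (-0.0018).

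**Figure D5:**
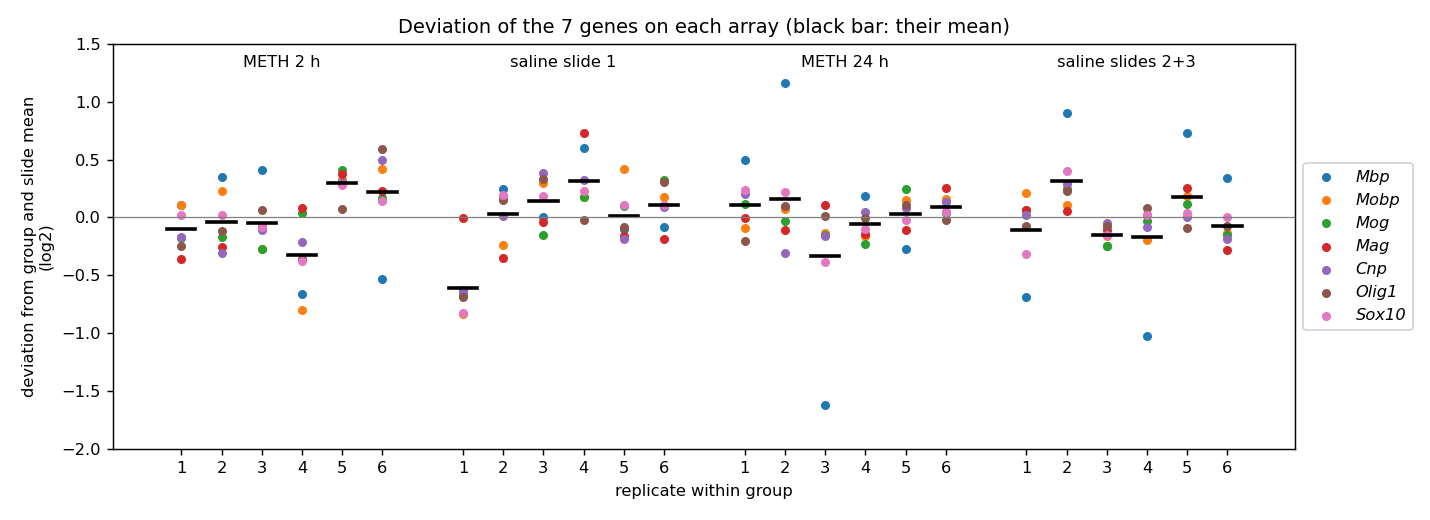
Deviation of each gene from its group and slide mean (log2) on each of the 24 arrays, by replicate within group; colours are genes and black bars the mean of the 7. Saline replicate 1 of slide 1 has the lowest mean (-0.61), and Mbp spreads far wider than the other genes on the METH 24 h and saline arrays of slides 2 and 3.

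Genes outside the 7 moved with them to different degrees. The mean deviation of 15 other structural myelin genes had r = 0.89 with that of the 7 genes over 24 arrays (rho = 0.90, and 0.86 without the 2 farthest arrays). It was 0.85 on slide 1 and 0.98 on slides 2 and 3. Against the mean of the 6 genes other than Mbp it was 0.92 on slide 1 and 0.87 on slides 2 and 3. With the mean of the 7 genes over 24 arrays, the r was 0.71 for 11 genes of myelin lipids and metabolism and 0.77 for 5 transcription genes. It was 0.58 for 6 gap junction and axoglial genes and 0.74 for 14 receptors and enzymes. For 7 precursor genes it was 0.32. For other cells it was 0.51 with 11 astrocyte genes, 0.37 with 12 microglia genes, 0.44 with 6 vessel genes, 0.17 with 4 choroid plexus and ependyma genes and -0.05 with 6 cortex neuron genes. With 19 striatal projection neuron genes it was -0.25, with -0.06 on slide 1 and -0.58 on slides 2 and 3, and with 14 general neuron genes it was -0.04. With brightness removed, over 24 arrays, the r was 0.82 for the structural myelin genes, 0.51 for lipids and metabolism and 0.51 for transcription genes. It was 0.42 for gap junction and axoglial genes and 0.65 for receptors and enzymes. By the same measure it was 0.57 for precursor genes, 0.60 for astrocyte genes, 0.32 for microglia genes, 0.32 for vessel genes, 0.11 for choroid plexus and ependyma genes, -0.19 for cortex neuron genes, -0.11 for striatal projection neuron genes and -0.0043 for general neuron genes. The precursor and astrocyte values over 24 arrays then stood above those of 3 of the 5 oligodendrocyte lists, but the sets of slides differed. With brightness removed the astrocyte r was 0.75 on slide 1 and 0.44 on slides 2 and 3, and the precursor r was 0.43 and 0.77. The r of the 5 oligodendrocyte lists ran from 0.14 to 0.66 on slide 1 and from 0.59 to 0.99 on slides 2 and 3. For vessel genes it was 0.65 on slide 1 and -0.08 on slides 2 and 3.

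The slope fit on Mobp gave these relations gene by gene. Of the 51 oligodendrocyte genes, 45 had a positive slope, against 5006 of 10353 probes. An unadjusted p under 0.05 was found for 22 of 51, all 22 positive, against 10.8% of probes. The median slope of the 51 was 0.29, against -0.0069 over all probes, and 0 of 51 passed. With brightness as a further term 16 of 51 had an unadjusted p under 0.05, against 6.24% of probes, and the median slope was 0.17. Positive slopes on Mobp were not limited to these genes. Of 11 astrocyte genes 9 had a positive slope (median 0.23), of 12 microglia genes 11 (median 0.16) and of 7 precursor genes 4 (median 0.18). Of 19 striatal projection neuron genes, 5 had a positive slope and the median was -0.08, and of 14 general neuron genes 6 had one and the median was -0.03. The 5 named genes that passed outside the lists were Txnip, Spock1, Pbxip1, Plvap and Lcat, all with positive slopes between 0.67 and 0.94. Txnip binds thioredoxin, Spock1 is a matrix proteoglycan, Plvap belongs to the endothelium and Lcat esterifies cholesterol. With brightness as a further term Pbxip1 alone of these passed (adjusted p = 0.0384, limma). The remaining probe, which is unnamed here, passed in both fits.

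Mbp varied more widely than the other 6 genes on slides 2 and 3. The SD of its deviation there was 0.82, while the other 6 genes had 0.12 to 0.23, and on slide 1 it was 0.43. The named genes whose deviations were most like those of Mbp over 24 arrays were Ptma (prothymosin alpha), at r = 0.91, Smarcd1, a subunit of a chromatin remodelling complex, at 0.89, and Gna12, a G protein subunit, also at 0.89. On slides 2 and 3 alone these were 0.94, 0.94 and 0.98, and their own SDs were 0.39, 0.43 and 0.56. None of the 15 structural myelin genes was among the 3. The mean deviation of those 15 genes had r = 0.81 with Mbp on slides 2 and 3 and 0.16 on slide 1.

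For the other genes the closest of 7359 were mixed, and all are descriptions over 24 arrays. Mog was closest to Gsn, the actin-severing gelsolin, at r = 0.83, Ndrg1 at 0.82 and Nsmce1 at 0.79, and Gsn and Ndrg1 belong to the oligodendrocyte lists used here. Mobp was closest to Spock1 (0.82), Txnip (0.81) and Plvap (0.80). These were 0.92, 0.87 and 0.89 on slide 1 and 0.35, 0.54 and 0.29 on slides 2 and 3. Cnp was closest to the glycine transporter Slc6a9 (0.84), Akap13 (0.83) and Laptm4b (0.83). These were 0.85, 0.93 and 0.90 on slide 1 and 0.82, 0.36 and 0.56 on slides 2 and 3. Olig1 was closest to the sugar transporter Slc35d2 at 0.83, an r that was 0.94 on slide 1 and 0.0058 on slides 2 and 3. Next to it stood Akap13 and Ist1 at 0.83 each, with 0.85 and 0.91 on slide 1 and 0.62 and 0.39 on slides 2 and 3. Sox10 was closest to the GTPase Rhog (0.83), Foxk2 (0.81) and Olfml2b (0.80). Mag, the dim probe, was closest to Klk1c9 (0.81), the ribosomal protein gene Rps3a (0.80) and Ostc (0.77). These were 0.85, 0.91 and 0.76 on slide 1 and 0.73, 0.22 and 0.79 on slides 2 and 3.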

How the data were processed

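Total RNA of dorsal striatum was amplified, biotin-labelled and hybridized to 24 single-colour Illumina RatRef-12 arrays, per the labels' protocols. The authors deposited probe intensity values, called raw in the file header, of which 26.4% to 31.7% per array lie below 0, so background had been subtracted, by software not given in the sources used here. The authors also deposited detection scores as fraction values, 1 minus p, which stand in another probe order (rank correlation with intensity -0.0136 to -0.00495) and were assigned by rank. A deposited table of log2 values was recomputed to within 2.17e-06 by raising intensities to at least 1, taking log2 and subtracting each probe's median within a set of slides. It served as an alternative, its column medians run from -0.41 to 0.40, and it is not scaled between arrays. No pair of arrays held identical values.

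In R 4.3.3, limma 3.58.1 (neqc, offset 16, quantile normalization) gave log2 levels, and 10354 probes with detection p under 0.05 on 6 or more arrays entered a linear model of the 4 groups plus slide 3 against slide 2, with Benjamini-Hochberg adjustment at 0.05. Covariation used the same fit with a gene's level as covariate, and both fits were checked on simulated data. Correlations describe deviations and carry no p. Samples are grouped by title, and arrays were taken as separate animals. The number of arrays limits precision. Symbols came from the platform annotation, updated through RefSeq (GRCr8), where 13757 probes matched. Named are the 7 genes, the gene of lowest p in each other oligodendrocyte list and time, genes passing on Mobp, and the 3 closest genes of each. The members and lists were chosen with earlier results of these data known.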

Additional observations from a re-analysis of the deposited data

Results flagged for a closer look

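Of 32 combinations of a gene, or the mean of the 7 genes, with a group of 6 arrays, 5 held an array far from the others by Dixon's gap criterion, which chance meets in about 1 of 20 groups. Mbp on METH 24 h replicate 3 had a log2 level of 9.19, where the nearest array of its group had 11.11. Its intensity was 550.6, against 1803 to 2882 on the other METH 24 h arrays. Sox10 on saline replicate 1 of slide 1 had 7.40, where the nearest had 8.33. The mean deviation of the 7 genes on that same array was -0.61, where the nearest was 0.01. Mag on saline replicate 4 of slide 1, the array of lowest brightness, had 6.24, where the nearest had 5.51. Olig1 on METH 24 h replicate 1 had 11.19, where the nearest had 11.41. The cause of these values was not tested.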

How the results depend on the processing

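Of the 7 genes, 0 passed in each METH contrast under every alternative run: median scaling, the deposited values, no filter on dim probes, array weights, no slide term, separate fits, brightness as a term, and leaving out each array without renormalizing. Signs of these changes, none past the threshold, often turned; the cause was not tested. Under median scaling the log2 changes at 2 h were 0.10 for Mbp, 0.072 for Mobp, 0.0054 for Mag, 0.00139 for Cnp and 0.13 for Sox10, those at 24 h -0.040 for Mog and -0.0042 for Olig1, and the differences between times -0.039 for Mobp, -0.17 for Cnp and -0.18 for Sox10. In the deposited values they were 0.092 for Mbp, 0.067 for Mobp and 0.13 for Sox10 at 2 h, -0.031 for Mog at 24 h, and -0.023, -0.15 and -0.18 for the differences of Mobp, Cnp and Sox10. Array weights gave 0.050 for Mbp at 2 h, 0.032 for Sox10 at 24 h and 0.054 for the difference of Mog. Within slide 2 the 24 h changes were -0.034 for Mobp, -0.030 for Mog, -0.028 for Olig1 and 0.040 for Sox10, and within slide 3 Cnp had 0.057. With brightness as a term, added after the data were seen, the 2 h changes were 0.13 for Mbp, 0.012 for Mag and 0.013 for Sox10, and without saline replicate 1 of slide 1 as well 0.24 for Mbp, -0.00482 for Mog and 0.14 for Mag.

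When each array was left out in turn, the 2 h changes ran from -0.24 to 0.022 for Mbp, -0.060 to 0.13 for Mog and -0.14 to 0.081 for Mag. They kept their sign for Mobp (-0.35 to -0.022), Cnp (-0.37 to -0.17), Olig1 (0.011 to 0.22) and Sox10 (-0.28 to -0.036). The 24 h changes ran from -0.41 to 0.20 for Mbp, -0.045 to 0.065 for Mog and -0.078 to 0.082 for Sox10. The differences ran from -0.30 to 0.31 for Mbp, -0.12 to 0.071 for Mog, -0.17 to 0.051 for Mag and -0.19 to 0.016 for Olig1. No paired analysis was possible because the labels give no replicate numbers, and those used here only name arrays.

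The number of genes passing in the slope fit, 0 on Mobp, was 4 in the deposited values, 1 with Mbp, Cnp or Olig1 as the covariate and 2 with Sox10. The number of ordered pairs passing, 5 of 42, was 20 in the deposited values, 9 with no slide term, 2 with no filter, 1 with array weights, 0 in separate fits of slide 1 or of slides 2 and 3, and 0 with brightness or detected probes as a term, and ran from 0 to 6 when each array was left out. The slope of Mbp on Mobp was -0.23 under median scaling and -0.040 in the deposited values, and that of Mag was -0.042 with brightness and -0.041 with detected probes as a term. When each array was left out, slopes on Mobp ran from 0.21 to 0.61 for Mog, 0.32 to 0.56 for Cnp, 0.31 to 0.55 for Olig1, 0.33 to 0.61 for Sox10, 0.47 to 0.78 for Mbp and 0.067 to 0.24 for Mag. The median r of the pairs was 0.31 on slides 2 and 3 and ran from 0.38 to 0.58 when each array was left out. The mean over probes of a gene equals the main value, since each gene has 1 probe.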
